A study of Mus musculus with 24 samples.

Results

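The genes described here are 38 enzymes, transporters and electron carriers of fatty acid oxidation. They were chosen by their symbols, with earlier results of these data known. They comprise the carnitine shuttle, the acyl-CoA synthetases, the mitochondrial and peroxisomal steps of beta-oxidation, the electron transfer flavoproteins and the ketone steps. Of the 38 genes, 37 were listed in both of the authors' deposited tables, which hold 19780 genes for control cells and 19979 for paused cells. Cpt1b, the muscle isoform of carnitine palmitoyltransferase 1, was in neither table, and its level was not analysed here.

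Poly(A) RNA had been sequenced from E14, a mouse embryonic stem cell line, in 24 libraries that form 6 groups of 4. The genotypes were wild type (WT) and 2 lines labelled as knockouts (Smad2_KO1 and Smad2_KO2) of Smad2, the transcription factor through which Nodal and activin act. Each genotype was kept in control medium (Ctrl) or given 200 nM INK128, which blocks the growth-controlling kinase mTOR, for 12 h (Paused), which puts the cells into a state like the dormancy of a blastocyst in diapause. All 6 groups were grown on gelatin in serum medium with leukaemia inhibitory factor. How the knockout lines were made and whether each is a clone is not given in the sources used here, nor is whether the 4 libraries of a group came from separate cultures, so p-values measure only the spread between these libraries, which may be technical. The series title links Nodal and Smad2 to the repression of Pparg and of lipid metabolism in paused cells, so the question asked of each table was whether genes that burn fatty acids changed when Smad2 was lost.

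Each table gives, per gene, a mean normalized read count over libraries, a log2 change between genotypes with its standard error (SE), and an adjusted p. No value per library is given, so levels by sample, the spread within a group and the 2 knockout lines apart could not be shown, and the depth of each library is unknown. Neither table says which genotype is the numerator. A positive change is taken here to mean a higher level in the knockout, since the targeted gene Smad2 had log2 changes of -0.35 (SE 0.070) in control and -0.63 (SE 0.057) in paused cells of the authors' deposited tables; the opposite reading would turn every direction below around. These Smad2 changes in the authors' deposited tables equal -21.4% and -35.4%, so its transcript was still counted, and loss of the protein was not measured here. Pou5f1, the defining marker of embryonic stem cells, had a mean of 51710 normalized counts in the authors' deposited control table and 44100 in the paused table. Of the 8 stem cell markers, the authors' deposited control table called 3 higher (Nanog, Klf4 and Tbx3) and Pou5f1 lower by 0.18 (SE 0.059), and the paused table called the same 3 higher; Tbx3 was 2.01-fold and 1.73-fold higher. Of 6 primitive endoderm markers (Gata4, Gata6, Sox17, Pdgfra, Dab2 and Foxa2), 5 were called higher in each of the authors' deposited tables, beside 19.5% (control) and 20.5% (paused) of all genes. Among them, Gata6 was 3.39-fold and 2.55-fold higher. The summed mean of the 6 was 907 (control) and 1729 (paused) normalized counts, against 220096 and 198288 for the 8 stem cell markers. None of the 6 endoderm markers was missing from a table. Of the fibroblast markers, 4 of 5 in the authors' deposited control table and 3 of 4 in the paused table were called lower, beside 21.9% and 22.0% of all genes. Their summed means were 813 and 789 normalized counts, and Col1a1 among them was 6.92-fold and 11.6-fold lower. The trophoblast list had 1 of 5 higher and 1 of 5 lower in each of the authors' deposited tables, with summed means of 11376 and 13353 normalized counts. Most of these counts came from Krt8 (6942 and 7552) and Krt18 (3829 and 5317), which were called in neither. Hand1 was 3.86-fold and 6.45-fold higher, and Cdx2 1.79-fold and 1.89-fold lower, in the authors' deposited tables. Of 5 markers of oxidative muscle, heart or liver, 3 were in the authors' deposited tables, with 2 lower in each, and Alb and Apoa1 were in neither. The part of these cells in the changes below was not tested, and in a bulk sample a change in the share of cells and a change in RNA per cell cannot be told apart.

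To be burnt in the mitochondrion, a long-chain fatty acid is first activated to its acyl-CoA, handed to carnitine by carnitine palmitoyltransferase 1, carried through the inner membrane by the translocase Slc25a20 and handed back to coenzyme A by carnitine palmitoyltransferase 2. Rounds of dehydrogenation, hydration, a further dehydrogenation and thiolysis then release acetyl-CoA, and the electrons taken in the opening step pass through the electron transfer flavoprotein to the respiratory chain. Peroxisomes run a related pathway for chains that mitochondria handle poorly. Nuclear receptors of the PPAR family are known to drive many of these genes in liver, heart and fat, and entry into the mitochondrion is held back by malonyl-CoA, the product of acetyl-CoA carboxylase.

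The changes fell into a small pattern with 2 large members. Slc25a20 and Acaa2, a mitochondrial thiolase of the pathway, rose 1.83- to 2.08-fold in the knockout in both conditions of the authors' deposited tables, whereas the other genes moved by less than 1.5-fold in every case that passed the test. For control cells, the authors' deposited table called 20 of the 37 genes (54.1%) at an adjusted p under 0.05, against 41.4% of all 19778 genes tested. Since 36 of the 37 genes had a mean of at least 5 ppm (the mean per 1000000 of the summed mean counts), the closer comparison is with the 10793 genes at that level, of which 50.0% were called in the authors' deposited control table. In paused cells the authors' deposited table again called 20 of 37 genes (54.1%), against 42.6% of all genes and 51.6% of those of at least 5 ppm. The share of the list that changed was therefore close to that of other genes of such abundance.

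In direction, 11 of the 37 genes (29.7%) were called higher and 9 (24.3%) lower in the authors' deposited control table, beside 19.5% and 21.9% of all genes. In paused cells the authors' deposited table called 15 (40.5%) higher and 5 (13.5%) lower, beside 20.5% and 22.0% of all genes. Of the genes of at least 5 ppm, the closer comparison, 50.0% in control and 51.6% in paused cells were called in either direction. Their split by direction is not given here, so the excess over all genes may partly reflect abundance. The median change of the list was 0.076 in the authors' deposited control table and 0.064 in the paused table, while the medians over all genes were 8.7e-04 and -0.0016. With equal summed counts in both genotypes, a scaling that moved the control changes by 0.055 and the paused changes by 0.035, 17 genes were higher and 7 lower in control cells, and 16 higher and 4 lower in paused cells. The scaling assumed that all libraries of wild type and of both knockout lines entered, which the sources used here do not state. The same scaling also moved all genes, to 24.1% higher and 15.7% lower in control and 23.7% higher and 17.4% lower in paused cells. Changes of at least 1.5-fold that passed the test were found for 2 of 37 genes (5.41%) in each of the authors' deposited tables, against 15.0% of all genes in control and 14.7% in paused cells, and 7.41% and 7.01% of the genes of at least 5 ppm. Only Slc25a20 and Acaa2 made up these 2 in both tables. They were also the only genes of the list whose calls in both tables held under each alternative run (a stricter threshold, a null of up to 1.2-fold, a scaled statistic, other centring and a minimum on abundance).

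**Figure D1:**
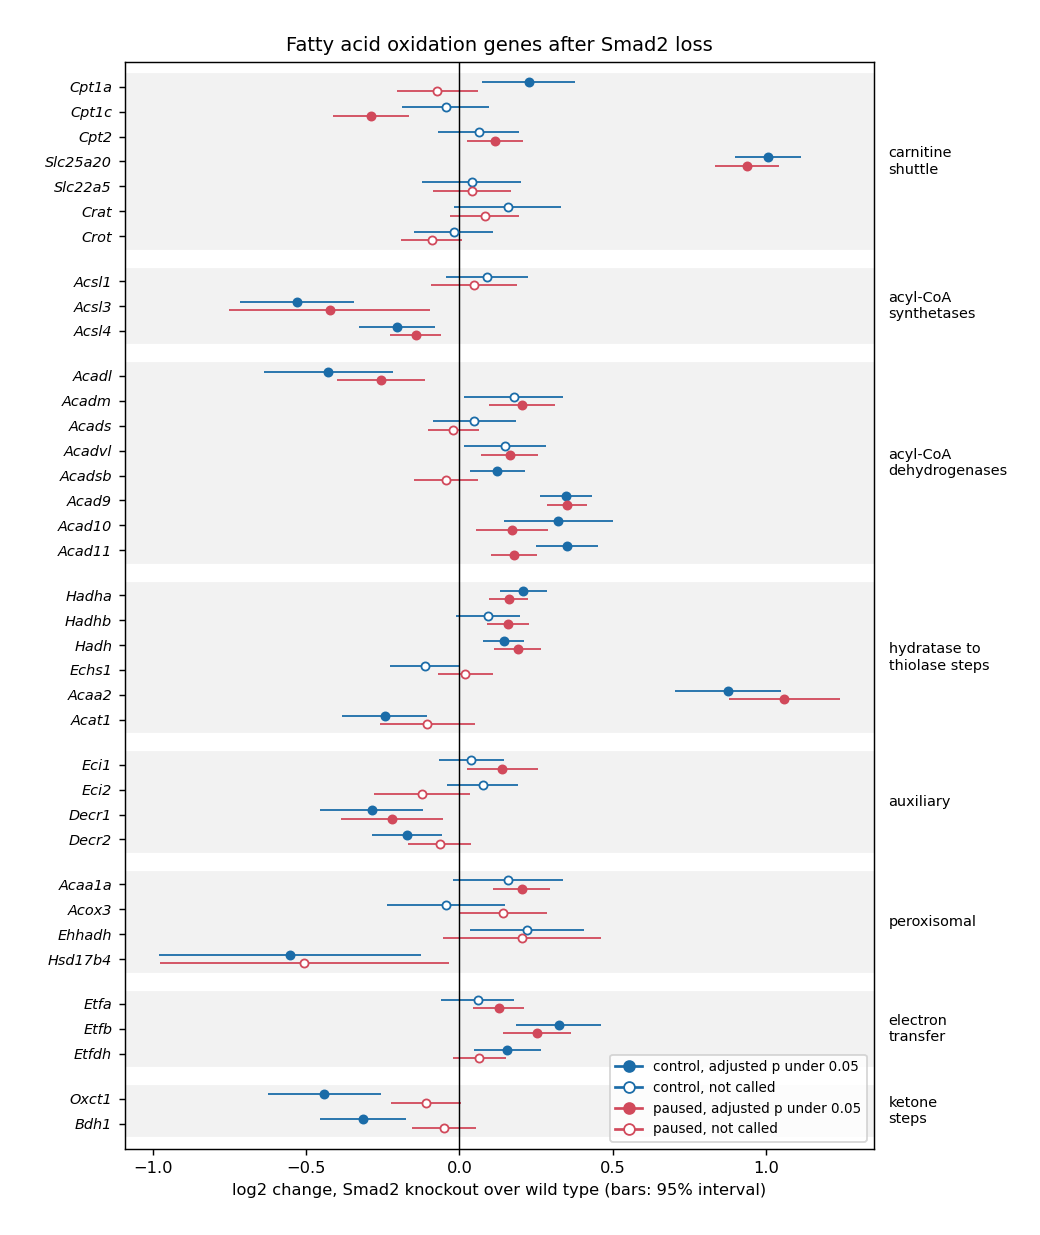
Log2 change of the 37 measured fatty acid oxidation genes, Smad2 knockout over wild type, in control (blue) and paused cells (red), grouped by role; points are the deposited changes, bars their 95% intervals, and filled points have an adjusted p under 0.05. Slc25a20 and Acaa2 stand near 1 in both conditions, and the other genes lie between -0.55 and 0.35.

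Slc25a20 is the carnitine-acylcarnitine translocase of the inner mitochondrial membrane. Its gene lies on the plus strand of chromosome 9, from 108662136 to 108684642 in the RefSeq annotation of GRCm38.p6, the assembly that mm10 in the submitters' processing notes stands for. Its mean was 2810 normalized counts in the authors' deposited control table and 3969 in the paused table. It rose 2.01-fold in control cells (95% interval 1.87 to 2.16, log2 change 1.01, SE 0.055, adjusted p 5.69e-72 in the authors' deposited table, by DESeq2). In paused cells it rose 1.92-fold (1.78 to 2.06, log2 change 0.94, SE 0.054, adjusted p 2.85e-65 in the authors' deposited table). The intervals of the 2 conditions overlap, and the difference between the changes was -0.069 (SE 0.077, adjusted p 0.791).

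The promoter of Slc25a20 is shown because this gene had the largest change of the shuttle, and because PPAR and RXR bind to a direct repeat, 2 copies of AGGTCA in tandem with any 1 base between them. RefSeq promoter windows of 300 bases (250 before and 50 after the start site, GRCm38.p6) were found for 31 of the 38 genes, and 0 of these held the repeat exactly on either strand, as did 0.048% of 27025 genes with a window. The Slc25a20 window, chr9:108661886-108662185 on the plus strand, holds a match with 2 mismatches over the fixed letters. It is in capitals and starts 6 bases after the start site.
Slc25a20: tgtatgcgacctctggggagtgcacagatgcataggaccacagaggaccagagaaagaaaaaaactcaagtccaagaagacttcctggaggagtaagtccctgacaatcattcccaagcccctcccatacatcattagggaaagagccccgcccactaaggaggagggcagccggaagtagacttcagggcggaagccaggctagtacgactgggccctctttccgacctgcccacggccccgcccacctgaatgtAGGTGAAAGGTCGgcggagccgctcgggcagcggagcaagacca
Windows with at most 2 mismatches were found for 3 of the 31 genes (9.68%; Echs1, Etfa and Slc25a20) and for 4.40% of all 27025 genes. With at most 1 mismatch they were found for 0 of 31 and 0.644% of genes, and with at most 3 for 8 of 31 (25.8%) and 27.3%, so the order of the shares changed with the number of mismatches allowed. Such a match is a description of the letters and not a binding site, and Echs1 was called in neither table. The single receptor motif AGGTCA, which is also contained in the repeat, was found in the windows of 5 of 31 genes (16.1%; Acadm, Cpt1c, Echs1, Acadvl and Cpt1a), against 18.1% of all genes.

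The other called genes of the carnitine shuttle changed by less than 1.5-fold, and a different isoform of its opening step was called in each table. Cpt1a, the widespread carnitine palmitoyltransferase 1 and the gate of mitochondrial entry, was higher by 0.23 in control cells (SE 0.077, adjusted p 0.0113 in the authors' deposited table). In paused cells its change of -0.072 (SE 0.067, adjusted p 0.406 in the authors' deposited table) was not called. Cpt1c, the brain isoform with little catalytic activity, had the converse calls: -0.045 (SE 0.072, adjusted p 0.652) in control cells and -0.29 (SE 0.063, adjusted p 3.21e-05) in paused cells of the authors' deposited tables. Cpt2, which returns the acyl group to coenzyme A inside the mitochondrion, rose by 0.12 in paused cells (SE 0.046, adjusted p 0.0302) and had 0.062 in control cells (SE 0.068) of the authors' deposited tables. Slc22a5, the plasma membrane carrier of carnitine, and the transferases Crat (short chains) and Crot (peroxisomal chains) were called in neither table, with changes between -0.091 and 0.16 in the authors' deposited tables.

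The acyl-CoA synthetases, which activate fatty acids for every use and not only for oxidation, were lower or not called. Acsl3, found on the endoplasmic reticulum and lipid droplets, fell by 0.53 in control cells (SE 0.095, adjusted p 2.78e-07 in the authors' deposited table). In paused cells it fell by 0.42 with an SE of 0.17 (adjusted p 0.0296 in the authors' deposited table), larger than that of 96.8% of genes within 1.5-fold of its mean count. Acsl4, which prefers arachidonic acid, fell by 0.20 (SE 0.063, adjusted p 0.00453) in control and by 0.14 (SE 0.042, adjusted p 0.00273) in paused cells of the authors' deposited tables. Acsl1, the isoform tied most closely to oxidation, was called in neither, at 0.090 (SE 0.068) and 0.047 (SE 0.071) in the authors' deposited tables.

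Among the 8 acyl-CoA dehydrogenases, the authors' deposited tables called 4 higher and 1 lower in control cells, and 5 higher and 1 lower in paused cells. Among all genes, the control table called 19.5% higher and 21.9% lower, and the paused table called 20.5% higher and 22.0% lower; the group as such was not tested. Acad9 has dehydrogenase activity and is also an assembly factor of respiratory complex I. It was higher by 0.35 in both conditions (SE 0.043 and 0.033, adjusted p 1.47e-14 and 1.23e-24 in the authors' deposited tables, means of 4023 and 3219 normalized counts). Acad11, which acts on very long and hydroxylated chains, rose by 0.35 (SE 0.051, adjusted p 1.31e-10) in control and by 0.18 (SE 0.038, adjusted p 2.24e-05) in paused cells of the authors' deposited tables. Its relative Acad10 rose by 0.32 (SE 0.091, adjusted p 0.00167) and 0.17 (SE 0.059, adjusted p 0.0116) in the authors' deposited tables, in the same order.

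The long-chain enzyme Acadl was the exception in this group. It fell by 0.43 (SE 0.11, adjusted p 3.58e-04) in control and by 0.26 (SE 0.073, adjusted p 0.00172) in paused cells of the authors' deposited tables. Acadvl, the very-long-chain enzyme whose substrates overlap with those of Acadl, had positive values of 0.15 (SE 0.068, adjusted p 0.0664) in control and 0.16 (SE 0.047, adjusted p 0.00206) in paused cells of the authors' deposited tables, of which the paused value alone passed. Acadm, the medium-chain enzyme, likewise had 0.18 (SE 0.082, adjusted p 0.0725) and 0.20 (SE 0.054, adjusted p 8.43e-04) in the authors' deposited tables. Acadsb, for short branched chains, rose by 0.12 in control cells (SE 0.046, adjusted p 0.0214) and had -0.045 (SE 0.053) in paused cells of the authors' deposited tables. Acads, the short-chain enzyme, was called in neither, at 0.049 and -0.020 in the authors' deposited tables.

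The Acad11 window is shown because its gene rose in both conditions and because it was the only one of the 31 windows with AATCCACA, a core motif of FOXH1, the DNA-binding partner of Smad2. That motif was in the windows of 3.23% of the 31 genes and of 1.01% of all genes, on either strand. In the window chr9:104063474-104063773 (plus strand, RefSeq, GRCm38.p6) the match lies on the minus strand, so the capitals show its complement, which starts 6 bases after the start site.
Acad11: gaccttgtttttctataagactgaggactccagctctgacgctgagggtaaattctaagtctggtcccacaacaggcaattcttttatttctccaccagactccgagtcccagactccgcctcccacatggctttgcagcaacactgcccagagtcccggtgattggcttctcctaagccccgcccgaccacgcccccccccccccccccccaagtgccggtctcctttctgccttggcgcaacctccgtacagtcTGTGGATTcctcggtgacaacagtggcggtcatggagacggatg
A SMAD palindrome, GTCTAGAC, was in 0 of the 31 windows and in those of 0.248% of all genes. The absence of these letters says nothing of binding elsewhere. The match in the Acad11 window is likewise a description of the letters and not a binding site.

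Of the 6 genes for the steps after the opening dehydrogenation, the authors' deposited tables called 3 higher and 1 lower in control cells and 4 higher in paused cells, beside 50.0% and 51.6% of genes of at least 5 ppm called in either direction. Acaa2 had a mean of 1910 normalized counts in the authors' deposited control table and 1254 in the paused table. It rose 1.83-fold in control cells (95% interval 1.63 to 2.07, log2 change 0.88, SE 0.089, adjusted p 5.23e-21 in the authors' deposited table). In paused cells it rose 2.08-fold (1.84 to 2.36, log2 change 1.06, SE 0.092, adjusted p 1.69e-28 in the authors' deposited table). The difference between conditions was 0.18 (SE 0.13, adjusted p 0.595).

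Hadha and Hadhb code for the alpha and beta subunits of the trifunctional protein, which carries out the last 3 steps on long chains. Hadha rose by 0.21 (SE 0.039, adjusted p 7.2e-07) in control and by 0.16 (SE 0.033, adjusted p 6.56e-06) in paused cells of the authors' deposited tables. Hadhb had 0.091 (SE 0.053, adjusted p 0.162) in control cells and rose by 0.16 (SE 0.035, adjusted p 5.08e-05) in paused cells of the authors' deposited tables. Both subunits had positive values in both conditions, and Hadhb missed the threshold in control cells. Both genes start from one stretch of chromosome 5 in opposite directions, with 273 bases between their start sites. The window of Hadhb, chr5:30155003-30155302 (plus strand, RefSeq, GRCm38.p6), is shown for that reason, and its 228 capitals are the bases that also belong to the window of Hadha, chr5:30154931-30155230 on the minus strand.
Hadhb: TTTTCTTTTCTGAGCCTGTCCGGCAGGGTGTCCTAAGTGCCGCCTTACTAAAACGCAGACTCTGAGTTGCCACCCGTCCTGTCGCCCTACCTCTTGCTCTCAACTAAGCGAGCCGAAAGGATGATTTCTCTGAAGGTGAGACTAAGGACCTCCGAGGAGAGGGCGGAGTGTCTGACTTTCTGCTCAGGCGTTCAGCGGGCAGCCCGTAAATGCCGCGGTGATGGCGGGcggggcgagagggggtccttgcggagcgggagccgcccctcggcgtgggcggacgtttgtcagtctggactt

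Hadh, the hydroxyacyl-CoA dehydrogenase for medium and short chains, rose by 0.14 (SE 0.034, adjusted p 1.45e-04) in control and by 0.19 (SE 0.039, adjusted p 7.64e-06) in paused cells of the authors' deposited tables. Echs1, the enoyl-CoA hydratase of the matrix, was called in neither, at -0.11 and 0.019 in the authors' deposited tables. Acat1, the acetoacetyl-CoA thiolase that serves ketone and isoleucine breakdown, fell by 0.24 in control cells (SE 0.071, adjusted p 0.00246) and had -0.10 (SE 0.078, adjusted p 0.29) in paused cells of the authors' deposited tables. Acaa2 was thus higher and Acat1 lower in control cells, while Hadhb, which holds the thiolase of the trifunctional protein, was not called.

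The auxiliary enzymes prepare unsaturated chains for the main cycle. Decr1, the mitochondrial dienoyl-CoA reductase, fell by 0.29 (SE 0.086, adjusted p 0.00326) in control and by 0.22 (SE 0.084, adjusted p 0.0239) in paused cells of the authors' deposited tables. Decr2, its peroxisomal counterpart, fell by 0.17 in control cells (SE 0.058, adjusted p 0.0111) and had -0.065 (SE 0.053) in paused cells of the authors' deposited tables. The isomerase Eci1 rose by 0.14 in paused cells (SE 0.059, adjusted p 0.0444 in the authors' deposited table), and Eci2 was called in neither table.

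Of the 4 peroxisomal enzymes, 1 was called in each of the authors' deposited tables, beside 50.0% and 51.6% of genes of at least 5 ppm. Hsd17b4, the multifunctional protein that hydrates and dehydrogenates very long chains, fell by 0.55 in control cells (SE 0.22, adjusted p 0.0299) and had -0.51 (SE 0.24, adjusted p 0.0765) in paused cells of the authors' deposited tables. Its SE was larger than that of 99.4% of genes within 1.5-fold of its mean count in the authors' deposited control table and of 99.8% in the paused table, where the medians were 0.058 and 0.047. What lies behind this SE was not tested. Acaa1a, the peroxisomal thiolase, rose by 0.20 in paused cells (SE 0.047, adjusted p 1.06e-04) and had 0.16 (SE 0.091) in control cells of the authors' deposited tables; its near-identical copy Acaa1b can share its reads, so the separate values are uncertain. Acox3, a branched-chain oxidase, and Ehhadh, the other multifunctional protein, were called in neither, and Ehhadh had the lowest mean count of the list (196 and 141 normalized counts in the authors' deposited tables).

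The electron transfer flavoprotein takes electrons from the acyl-CoA dehydrogenases and gives them to ubiquinone through its dehydrogenase. All 3 genes had positive changes in both of the authors' deposited tables, and 2 were called in each, beside 50.0% and 51.6% of genes of at least 5 ppm. Etfb, the beta subunit, rose by 0.32 (SE 0.070, adjusted p 2.96e-05) in control and by 0.25 (SE 0.057, adjusted p 6.08e-05) in paused cells of the authors' deposited tables. Etfa, the alpha subunit, had 0.059 (SE 0.061, adjusted p 0.461) in control cells and rose by 0.13 (SE 0.042, adjusted p 0.00846) in paused cells of the authors' deposited tables. Etfdh, the ubiquinone oxidoreductase, rose by 0.16 in control cells (SE 0.056, adjusted p 0.0162) and had 0.064 (SE 0.044, adjusted p 0.245) in paused cells of the authors' deposited tables. Exons of other genes in GENCODE M21 cover 58.2% of the exon bases of Etfb and 42.9% of those of Acadvl (Dvl2), and although the libraries were directional per the labels, the use of strand in counting is not given in the sources used here, so these values are uncertain. Oxct1 (12.6%) and Bdh1 (13.7%) share smaller parts of their exons.

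Both genes of the ketone steps were called lower in control cells and neither in paused cells, beside 21.9% and 22.0% of all genes called lower. Oxct1, which activates acetoacetate for use as fuel, fell by 0.44 in control cells (SE 0.094, adjusted p 2.15e-05) and had -0.11 (SE 0.058, adjusted p 0.123) in paused cells of the authors' deposited tables. Bdh1, the hydroxybutyrate dehydrogenase that feeds it, fell by 0.31 (SE 0.071, adjusted p 6.02e-05) and had -0.049 (SE 0.053, adjusted p 0.484) in the authors' deposited tables, in the same order.

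Calls in the 2 conditions overlapped in part. The authors' deposited tables called 12 genes in both, 8 higher and 4 lower and none in opposite directions. These 12 are 60.0% of the calls in control cells and 60.0% of those in paused cells. Over the 10484 genes of at least 5 ppm in both tables, 73.7% of the control calls and 70.9% of the paused calls were shared; the difference from the 37 genes was not tested. A further 8 genes were called in control cells alone (3 higher, 5 lower) and 8 in paused cells alone (7 higher, 1 lower), and 9 were called in neither. Signs were the same in both tables for 31 of 37 genes (83.8%), against 81.5% of those 10484. Across the 37 genes the changes of the authors' deposited tables had a Pearson r of 0.905, 0.834 over the 35 genes without Slc25a20 and Acaa2, and 0.901 over the 10484 genes; genes are not independent replicates, and the 2 tables rest on different libraries per the labels.

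**Figure D2:**
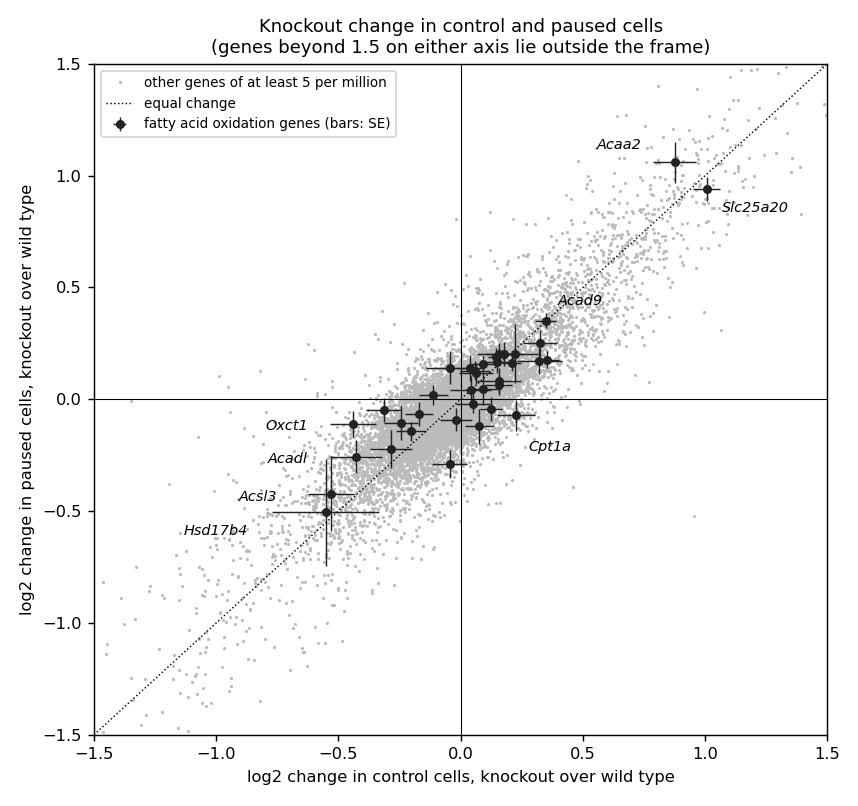
Log2 change in control cells (x axis) against that in paused cells (y axis), knockout over wild type, for the fatty acid oxidation genes (black, bars are 1 SE) and other genes of at least 5 ppm (grey); the dotted line marks equal changes. Slc25a20 and Acaa2 lie at the upper end of the diagonal, while Oxct1 lies above the line and Cpt1a below it.

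Whether the change itself differed between the conditions was tested as the paused change minus the control change over the combined SE (two-sided normal p, adjusted by Benjamini-Hochberg over all 19134 genes that both tables hold). None of the 37 genes passed, against 275 genes (1.44%) of all. By this test 7 of the 37 (18.9%) had an unadjusted p under 0.05, against 12.9% of all 19134 genes: Oxct1, Bdh1, Cpt1a, Acad11, Cpt1c, Acadsb and Eci2. The largest difference was that of Oxct1, 0.33 (95% interval 0.11 to 0.55, adjusted p 0.102). Bdh1 had 0.27 (0.091 to 0.44, adjusted p 0.103) and Cpt1a -0.30 (-0.50 to -0.097, adjusted p 0.12). A call in one condition alone, as for the ketone genes or Cpt1a, is thus not shown to depend on pausing. The median difference of the list was 0.027, against 0.0056 over all genes.

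**Figure D3:**
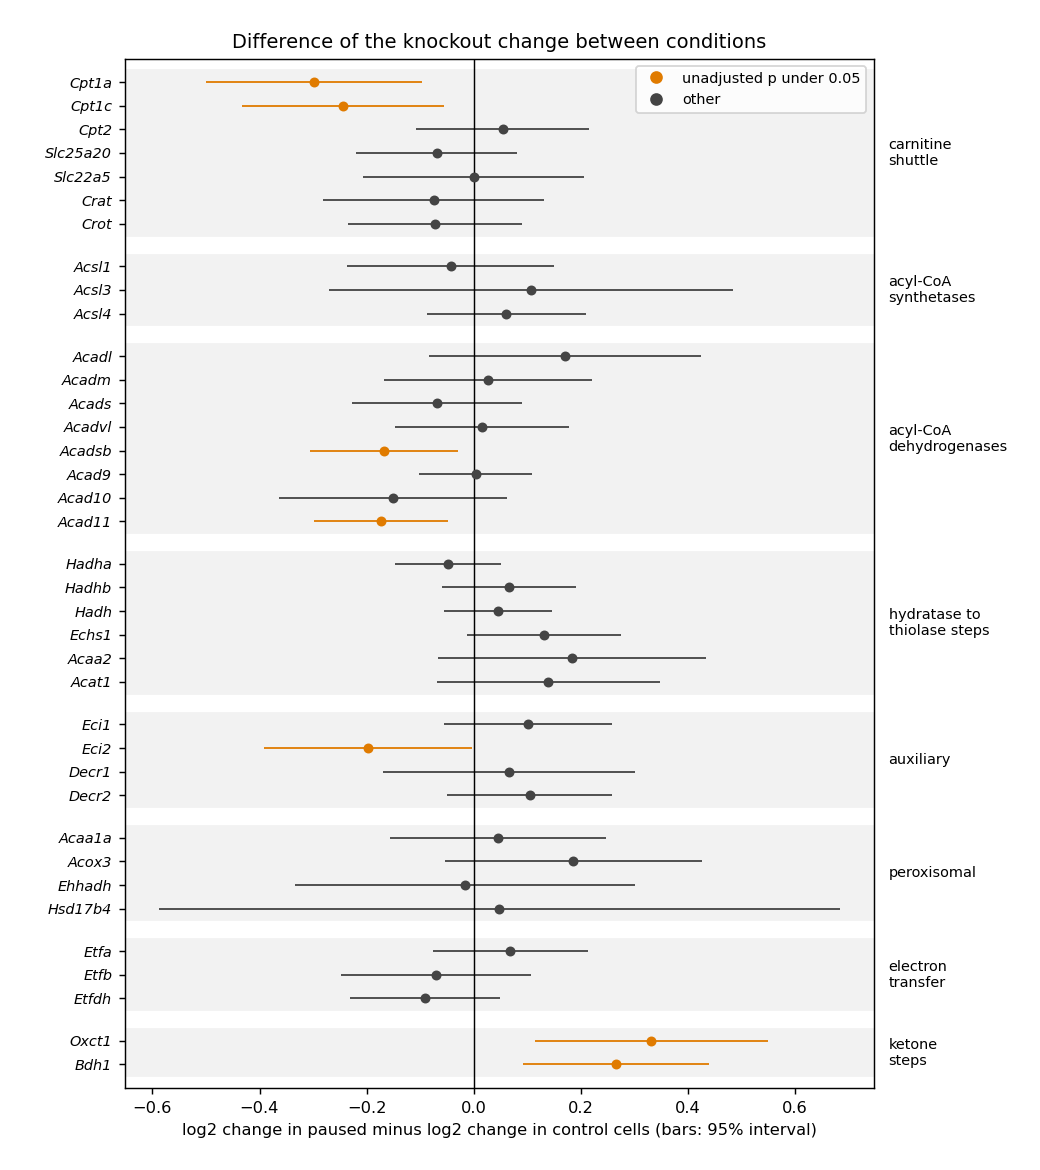
Difference of the knockout change, paused minus control (log2), for the 37 genes by role; bars are 95% intervals and orange marks the 7 genes with an unadjusted p under 0.05 (12.9% of all genes had one). Oxct1 and Bdh1 lie highest and Cpt1a and Cpt1c lowest, and none passed after adjustment over 19134 genes.

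Levels were compared between genes as mean normalized counts per kilobase of merged exons (GENCODE M21), with both genotypes pooled as the authors averaged them. Etfb was the highest of the list at 3040 per kb (control) and 2208 per kb (paused), followed by Etfa at 1776 and 1803. Acadm (1575 and 907) and Acaa2 (1260 and 828) came next in control cells. The lowest in control cells was Acox3 at 36.2 per kb, and in paused cells Ehhadh at 47.5. Of the isoforms of carnitine palmitoyltransferase 1, Cpt1c had the higher level per kb in control cells (438 against 206 for Cpt1a) and Cpt1a in paused cells (670 against 394). Merged exons count every annotated isoform, and no spread over libraries can be given.

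Set side by side, the means also showed which genes took a larger share of the summed counts with INK128. The tables were normalized separately and no library values are given, so these shares have no test. Cpt1a had 34.2 ppm in control and 116 in paused cells, a ratio of 3.38 that exceeded that of 99.3% of the 10958 genes of at least 5 ppm. Acox3 went from 9.05 to 27.3 ppm, a ratio of 3.01. At the other end, Acsl3 (40.4 and 21.7 ppm, ratio 0.538) and Eci2 (19.2 and 10.4, ratio 0.54) had the lowest ratios of the list. The median ratio of the 37 genes was 1.07, against 1.04 for genes of at least 5 ppm, with 6 genes (16.2%) over 1.5-fold up and 3 (8.11%) over 1.5-fold down, against 15.6% and 11.4% of those genes. The share of the list as a whole was 1571 ppm in control and 1654 in paused cells.

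**Figure D4:**
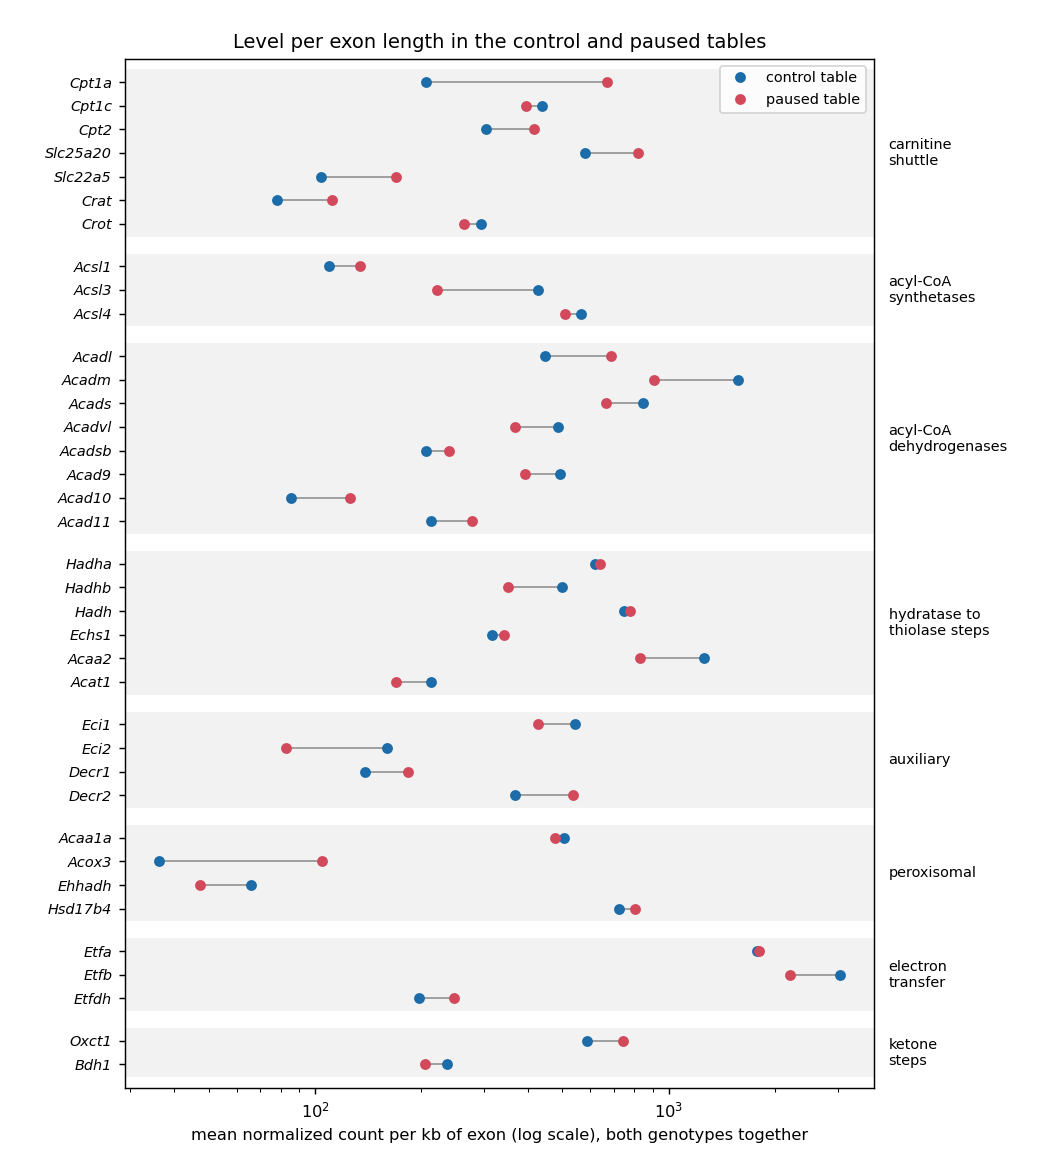
Mean normalized count per kilobase of exon (log axis) of the 37 genes in the control (blue) and paused table (red), both genotypes together as the authors averaged them, with no error since no library values are given. Etfb and Etfa are highest, and Cpt1a and Acox3 show the widest gaps toward paused cells.

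A wider list of 72 further genes of the pathway (regulators, malonyl-CoA control, uptake, carnitine synthesis, further peroxisomal and matrix enzymes, ketone and PPAR-responsive genes) was read in the same way. In control cells 65 were in the authors' deposited table, with 17 called higher and 12 lower (44.6% called). In paused cells 63 were in the authors' deposited table, with 19 higher and 12 lower (49.2% called). These shares are near the 41.4% and 42.6% of all genes.

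Among the regulators, Pparg, the receptor named in the series title, rose by 3.26 (SE 0.34, adjusted p 1.96e-19) in control and by 4.44 (SE 0.34, adjusted p 8.73e-36) in paused cells of the authors' deposited tables. Its means there were low, at 48.0 and 85.7 normalized counts, and pool both genotypes, so they are not the level it rose from. Its partner Rxra rose by 0.65 (SE 0.096) and 0.59 (SE 0.064) in the authors' deposited tables. Ppard, the widespread receptor of the family, rose by 0.16 (SE 0.060, adjusted p 0.0214) and 0.11 (SE 0.047, adjusted p 0.042) in the authors' deposited tables at means of 1456 and 1323 normalized counts. Of the 9 regulators in each of the authors' deposited tables, 4 were called higher and 1 lower in control cells. In paused cells 4 were called higher and 2 lower. Of all genes, 41.4% and 42.6% were called in either direction. Rxrb, Nrf1 and Sirt3 are named after their values were seen. Rxrb, another partner, fell by 0.13 in paused cells (SE 0.033, adjusted p 4.84e-04) and had -0.090 (SE 0.068) in control cells of the authors' deposited tables. Nrf1, a regulator of respiratory genes, fell by 0.092 (SE 0.035, adjusted p 0.0246) and 0.12 (SE 0.050, adjusted p 0.0459) in the authors' deposited tables. Ppara, the receptor that drives oxidation in liver, had 0.48 (SE 0.29) and 0.43 (SE 0.19) at means of 23.2 and 54.8 normalized counts and was called in neither of the authors' deposited tables. Esrra, an orphan receptor of mitochondrial genes, rose by 0.15 in paused cells (SE 0.060, adjusted p 0.0286) and had 0.24 (SE 0.12, adjusted p 0.115) in control cells of the authors' deposited tables. Sirt3 rose by 0.18 in control cells (SE 0.075, adjusted p 0.0367) and had 0.031 (SE 0.077) in paused cells of the authors' deposited tables. The coactivator Ppargc1b was called in neither table, and Ppargc1a was in neither.

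Of the genes that make or break down malonyl-CoA, Acaca was called in paused cells. Acaca, the cytosolic carboxylase that makes malonyl-CoA, rose by 0.27 in paused cells (SE 0.075, adjusted p 0.0016) and had 0.0048 (SE 0.069) in control cells of the authors' deposited tables. Acacb, the carboxylase at the mitochondrial surface, and Mlycd, which breaks malonyl-CoA down, were called in neither, with changes from 0.014 to 0.11 in the authors' deposited tables.

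Further called changes of at least 1.5-fold in this list went both ways. The hydratase-like genes Echdc2 (0.62 and 0.72) and Echdc3 (0.90 and 0.59) rose in both of the authors' deposited tables. Dmgdh, a flavoprotein-linked dehydrogenase of one-carbon donors, rose by 0.60 in control cells and had 0.37 (adjusted p 0.0731) in paused cells of the authors' deposited tables. The related Sardh had 0.58 (adjusted p 0.221) in control cells and rose by 1.04 in paused cells of the authors' deposited tables. Its means there were low, at 15.9 and 25.6 normalized counts. Those of Dmgdh were 110 and 117, and those of Echdc3 107 and 62.5. For Dmgdh and Sardh, the difference between conditions did not pass (adjusted p 0.79 and 0.755 by the normal test). Tmlhe, the opening enzyme of carnitine synthesis, was 1.73-fold lower in control and 2.29-fold lower in paused cells of the authors' deposited tables, at low means of 43.9 and 29.3 normalized counts. Slc27a2, a very-long-chain synthetase and transporter, fell by 0.75 and 0.65, and the thioesterase Acot13 by 0.43 and 0.59, in the authors' deposited tables. Acsl5, a further synthetase, fell by 0.66 and 0.34 in the authors' deposited tables. Plin2, a lipid droplet coat protein, and Fabp5, a fatty acid carrier, fell by 0.95 and 0.62 in control cells of the authors' deposited tables. In paused cells of the authors' deposited tables they had -0.34 and -0.19, which were not called. The control SE of Plin2, 0.28, was larger than that of 99.7% of genes within 1.5-fold of its mean count. The difference between conditions passed for neither Fabp5 (adjusted p 0.349 by the normal test) nor Plin2 (no less than 0.469). Abcd2, a peroxisomal transporter, fell by 2.03 in the authors' deposited control table at a mean of 5.59 normalized counts.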

How the data were processed

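RNA was sequenced from 24 libraries, whose titles give the genotype and treatment. For each condition the authors deposited 1 results table; the submitters' processing notes name FastQC, Trim Galore, HISAT2, featureCounts, DESeq2 and mm10, with no version or setting. Per the file headers, the mean normalized count is a signal value averaged over libraries by the authors, the change and its standard error are on the log2 scale, the statistic is a score, and p-values and adjusted p-values were deposited with them. Which libraries and knockout lines entered is not given in the sources used here.

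Genes with an adjusted p under 0.05 over the whole table were called. Intervals of 95% are the change plus or minus the normal quantile times the standard error; the depth per library is unknown. The test of the difference between conditions was tested on simulated data: of 200 among 19134 genes given a log2 difference of 1, it called 64.0%, and 5.19% of its calls were false. The simulated errors were normal with the deposited SEs, so the share of false calls follows from that choice. In the real data the statistic had a middle spread of 1.23, where a standard normal gives 1. The largest difference among the 37 genes was 0.33, so neither share describes calls among them. Levels per kb used merged exons of GENCODE M21, and older symbols, positions and promoters came from RefSeq for GRCm38.p6; 38 of 38 genes had an exon length and 31 a promoter window. The members, lists and tests were chosen with earlier results of these data known. Named genes were all members called in a table, with the others given by range or to complete a pair, Smad2 and Pparg, and from the wider list the main regulators, the malonyl-CoA genes and calls of at least 1.5-fold. Alternatives were an adjusted p under 0.01, a test against 1.2-fold, a scaled statistic, 2 other centrings and a minimum of 5 ppm of the summed means (means of 230 in the control and 221 in the paused table). Python 3.11.15, numpy 2.4.6, pandas 2.3.3, scipy 1.17.1 and matplotlib 3.10.9 were used.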

Additional observations from a re-analysis of the deposited data

Results flagged for a closer look

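In the wider list, the change of Slc16a1, the monocarboxylate carrier that also moves ketone bodies, differed between the conditions by 0.31 (SE 0.086, adjusted p 0.0319 over 19134 genes by the normal test of the difference). It fell by 0.15 in control cells (SE 0.052, adjusted p 0.0126) and had 0.16 (SE 0.069, adjusted p 0.0502) in paused cells of the authors' deposited tables. It is named here because its value was seen to pass that test. No other gene of the wider list or of the 37 fatty acid oxidation genes passed. Slc16a1 is thus 1 call among 63 wider genes, beside 275 genes (1.44%) of all 19134. Over all genes, the scores from that test spread more widely than a standard normal (1.23 against 1). The alternative runs below are given for the 37 genes only, so whether the call of Slc16a1 holds under them is not shown.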

How the results depend on the processing

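Slc25a20 and Acaa2 kept their direction and call in both tables under all 6 alternatives. Against 20 in each table, 3 genes in control and 2 in paused cells were called with a null of up to 1.2-fold (10.6% of all genes in each table), and 2 and 3 (1.48% and 2.25% of all genes) after dividing the statistic by its middle spread (2.76 and 2.80 over all genes, where a standard normal gives 1). With a stricter threshold 15 and 15 were called, and other centrings or the minimum on abundance gave 20 to 24. With equal summed counts the median change was 0.131 in control and 0.0998 in paused cells, and the median difference 0.0070. The difference between conditions had 0 calls in every alternative. With equal summed counts, uncalled values changed sign in control cells for Cpt1c (0.0097), Crot (0.037) and Acox3 (0.011), in paused cells for Acads (0.016), and in the difference for Slc22a5 (-0.020), Acadvl (-0.0046) and Acad9 (-0.016); centring on the median did so for the differences of Slc22a5 (-0.0055) and Acad9 (-0.0022). No paired analysis was possible because the tables hold no values per library, and leaving out a replicate was not run for the same reason. The cause of the wide statistic was not tested.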

Other observations

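Among the 72 further genes of the pathway, the share of the summed mean counts (ppm, per 1000000 of that sum) differed widely between the tables for some genes. Mlycd, the malonyl-CoA decarboxylase, had 2.61 ppm in the control and 13.4 in the paused table, a ratio of 5.12. Acss1, the mitochondrial acetyl-CoA synthetase, went from 7.28 to 36.3 ppm (ratio 4.99), and Fabp3, a cytosolic fatty acid carrier, from 55.2 to 190 (ratio 3.44). Each ratio exceeded that of over 99% of the 10958 genes of at least 5 ppm. Acaca had 82.1 and 51.5 ppm (ratio 0.628), and Dbi, the acyl-CoA binding protein, 43.3 and 14.9 (ratio 0.343). In the knockout comparison of the authors' deposited tables, Mlycd, Acss1 and Dbi were not called in either condition. Fabp3 rose by 0.36 in control cells (SE 0.094, adjusted p 6.43e-04) and had 0.030 (SE 0.082) in paused cells of the authors' deposited tables, and Acaca was called higher in paused cells. These genes were picked after their values were seen, the tables were normalized separately, and the shares pool both genotypes, so the ratios are values without a test.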
